A study of Mus musculus with 4 samples.

Results

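The cells described here are those that the authors' annotation of a joint single-cell table names naive T cells. They number 928 of 19891 cells, of which 743 came from 6870 cells of B16 melanoma tumours and 185 from 13021 cells of Lewis lung carcinoma (LLC) tumours. Membership rests on the deposited cell name alone. RNA of cells from subcutaneous tumours was read on the 10x Genomics droplet platform, which tags each captured molecule with a unique molecular identifier (UMI). B16 is a mouse melanoma line grown in C57BL/6J mice, and LLC is a mouse lung carcinoma line grown in mice with floxed F11r alleles (F11r fl/fl) and no LysM-Cre, the recombinase that would delete F11r in myeloid cells. Each tumour type was 1 library from a pool of 3 mice, and no library of another treatment entered the comparisons. Tumour type, host strain and library therefore cannot be told apart, and no test, p value or standard error is given anywhere. Exact 95% intervals stand in brackets, and they account for counting error alone.

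Naive T cells have left the thymus and have not yet met their antigen. The transcription factors Tcf7 (TCF-1), Lef1 and Satb1 hold them in a resting state, while Ccr7 and S1pr1 let them move between blood, lymph node and lymph. After activation a T cell turns these genes down and makes chemokines, cytokines and killing proteins, although long-lived memory cells keep or regain many of the same resting genes and carry effector transcripts such as Ccl5 beside them.

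The cluster was a cluster of T cells. At least 1 UMI of a CD3 chain gene was found in 98.5% of the annotated naive cells of B16 and in 96.2% of those of LLC. They were shallow cells, with a median of 3736 UMIs and 1371 genes in B16 and 2455 UMIs and 1046 genes in LLC. In B16 the median was 11176 UMIs in CD8 T cells, 4475 in the regulatory cluster Tregs-1 and 4032 in natural killer (NK) cells. Summed over its cells the cluster held 3027040 UMIs in B16 and 479302 in LLC, so values of LLC are the less precise. Ribosomal protein genes took 35.4% of its UMIs in B16, against 30.5% in CD8 T cells and 23.5% in Tregs-1. A separate annotation of the B16 library alone gave the same name to 697 of the 743 cells. It called 23 of them Treg, 9 CD8 T cells, 7 NK cells and 2 Neu. The names Immature Mac, Mono and cDC2 each went to 1 cell, and 2 cells had no matching barcode. The counts differed in no UMI over the 741 cells found in both tables. Of all cells, 29 barcodes occurred in both libraries, 3 of them in annotated naive cells of B16 and 0 in those of LLC.

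The cluster made up 10.8% (10.1 to 11.6) of all cells in B16 and 1.42% (1.22 to 1.64) in LLC, a ratio of 7.61 (6.47 to 8.99). The direction turned with the base of the share. Of the T cells it was 27.7% of 2678 cells in B16 and 64.2% of 288 in LLC, a ratio of 0.432 (0.367 to 0.510). Of T, NK and B cells together it was 23.4% of 3174 in B16 and 35.5% of 521 in LLC, a ratio of 0.659 (0.560 to 0.779). The LLC table held 4 non-dividing CD8 T cells and 41 Tregs-1 cells, against 787 and 546 in B16, so the comparisons with CD8 T cells were made in B16 only.

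Levels below are UMIs of a gene per 1000000 UMIs of the cluster (CPM). Tcf7, on mm10 chromosome 11 from 52252371 to 52283014 on the minus strand, stood at 275 CPM (256 to 294) in annotated naive cells of B16 and 269 (225 to 320) in those of LLC. In B16 it was at 7.39 CPM in CD8 T cells and 9.50 in Tregs-1, and no Tcf7 UMI was seen in the 41 Tregs-1 cells of LLC (upper bound 28.0 CPM). A Tcf7 UMI was found in 54.1% of the annotated naive cells of B16 and 38.9% of those of LLC. The share was 4.96% in CD8 T cells of B16, which were read more deeply, and 5.0% in B cells of B16, taken as the background, at a median of 2432.5 UMIs. The ratio of levels in B16 was 37.2 (29.4 to 47.6) over CD8 T cells and 28.9 (20.4 to 42.3) over Tregs-1.

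Lef1, the partner factor of Tcf7 (mm10 chromosome 3, 131110471 to 131224356, plus strand), was at 223 CPM in annotated naive cells of B16 and 179 in those of LLC, against 6.42 in CD8 T cells and 36.3 in Tregs-1 of B16. Satb1, a chromatin organiser (mm10 chromosome 17, 51736187 to 51833290, minus strand), was at 260.0 CPM in B16 and 315 in LLC, against 26.8 in CD8 T cells and 75.7 in Tregs-1 of B16. Both were thus higher in the annotated naive cells than in either of these clusters of B16, Lef1 with ratios of 34.8 over CD8 T cells and 6.15 over Tregs-1 and Satb1 with ratios of 9.69 and 3.43. A Lef1 UMI was found in 44.0% of annotated naive cells of B16, 4.09% of B cells and 21.0% of NK cells. In LLC it was found in 26.5% of annotated naive cells and 17.6% of NK cells. A Satb1 UMI was found in 46.4% of annotated naive cells of B16 but also in 37.7% of B cells and 55.8% of NK cells, so its presence did not set the cluster apart from these types.

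Over a list of 22 genes of naive and quiescent T cells, 21 were at least 1.5-fold higher in annotated naive cells than in CD8 T cells of B16, none lower and 1 between. The median log2 ratio of the list was 3.60, against -0.07 over all 10698 genes that had 20 or more UMIs in the 2 clusters summed. Of all those genes 18.5% were higher and 24.6% lower by the same rule, which is one of size alone. Against Tregs-1, 19 of the 22 were higher, none lower and 3 between, with a median of 2.39 against -0.18 over all 9803 genes, of which 12.1% were higher and 25% lower, or 1184 and 2454 genes. Median-of-ratios scaling, which takes the median log2 ratio of well-read genes (-0.20) as no change, gave 1779 higher and 1768 lower. The clusters were drawn from these same transcripts, so the counts describe the cluster and are read no further.

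The homing genes followed the same order. Ccr7, the receptor that guides T cells into lymph nodes, was at 97.8 CPM in annotated naive cells of B16 and 96.0 in those of LLC, against 17.1 in CD8 T cells and 15.8 in Tregs-1. S1pr1, the receptor for exit into lymph, was at 153 CPM in B16 and 152 in LLC, against 2.43 in CD8 T cells and 22.7 in Tregs-1. Ccr7 had a ratio of 5.72 (4.73 to 6.93) over CD8 T cells and 6.18 (4.62 to 8.39) over Tregs-1, and S1pr1 of 63.1 (42.2 to 98.5) over CD8 T cells and 6.74 (5.30 to 8.67) over Tregs-1.

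Survival and quiescence genes were also high. Klf2, the factor that drives S1pr1, was at 539 CPM in annotated naive cells of B16 and 636 in those of LLC, against 16.9 in CD8 T cells and 47.8 in Tregs-1 of B16. Il7r, the receptor chain for the survival cytokine IL-7, was at 409 CPM in B16 and 772 in LLC, against 38.3 in CD8 T cells and 174 in Tregs-1. Bcl2, which guards against cell death, was at 421 CPM in B16 and 465 in LLC, against 103 in CD8 T cells and 23.3 in Tregs-1. The exception against CD8 T cells was Actn1, an actin cross-linker, at 64.1 CPM in annotated naive cells and 69.6 in CD8 T cells, a ratio of 0.921 (0.782 to 1.08).

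**Figure D1:**
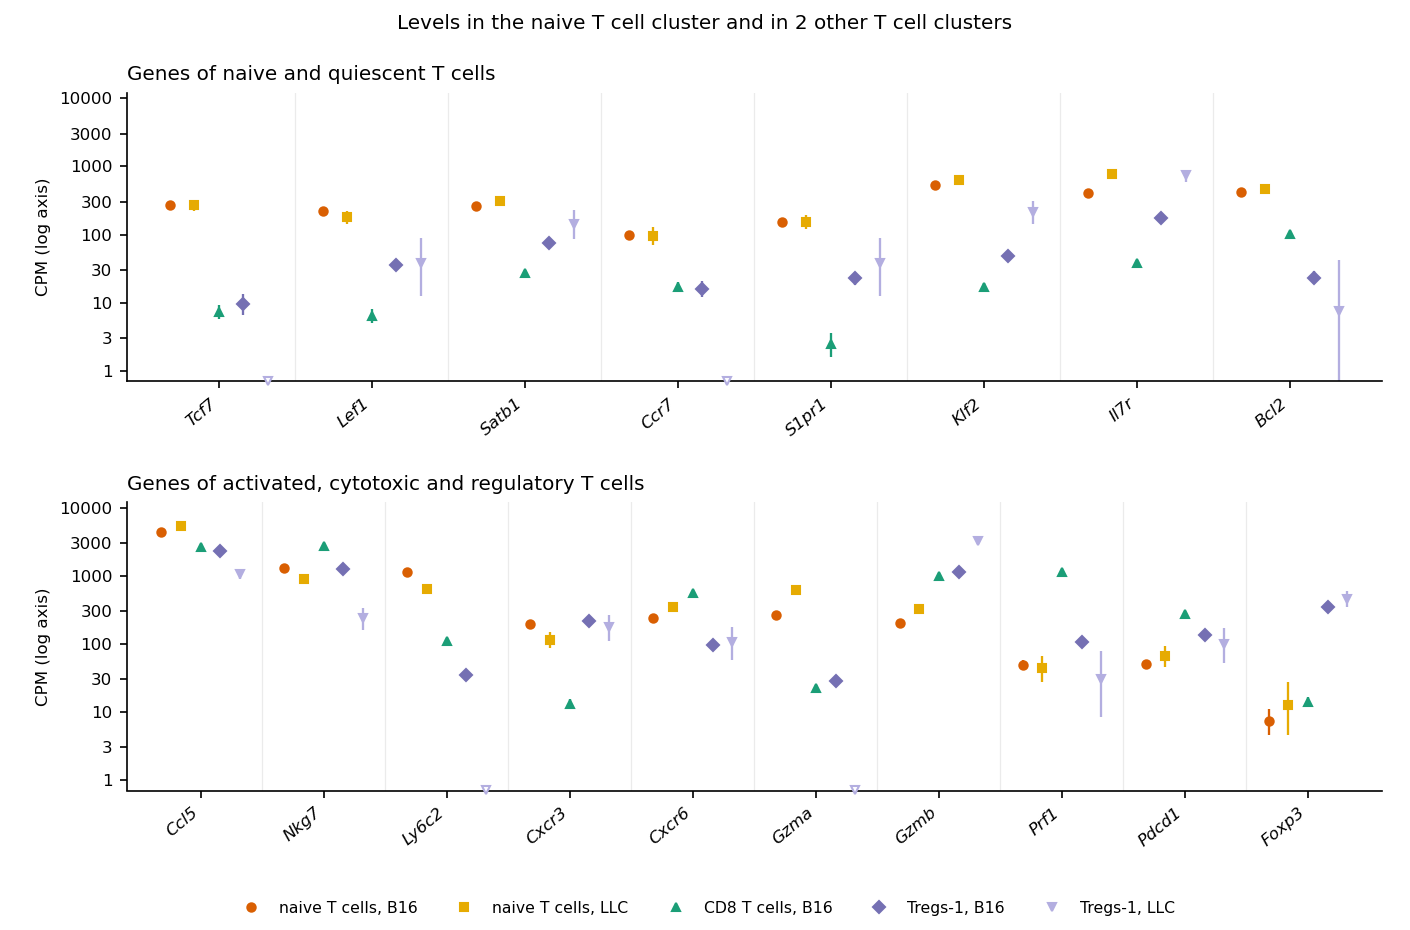
Levels of 18 genes in annotated naive T cells of B16 and LLC, in CD8 T cells of B16 and in Tregs-1 of both tumours, in CPM on a log axis with exact 95% intervals; open symbols on the axis mark 0 UMIs. Tcf7 sits at 275 and 269 in the naive cluster against 7.39 in CD8 T cells, while Ccl5 sits at 4386 and 5310 against 2620.

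The label was only partly borne out, because transcripts of activated T cells were abundant in the same cluster. Ccl5, a chemokine that antigen-experienced T cells and NK cells make, was at 4386 CPM (4312 to 4461) in annotated naive cells of B16 and 5310 (5106 to 5520) in those of LLC, against 2620 in CD8 T cells and 2336 in Tregs-1 of B16. A Ccl5 UMI was found in 66.9% of these cells in B16 and 49.2% in LLC, and at least 3 UMIs in 56.0% in B16 and 40.5% in LLC. Among B cells, which should lack the transcript, at least 3 UMIs were found in 7.27% in B16 and 0.980% in LLC, at median depths of 2432.5 and 1895.5 UMIs.

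Some further genes linked to activation or memory were higher in the annotated naive cells than in CD8 T cells. More of the listed activation genes were lower, Cxcr6 among them. Ly6c2, a surface protein of memory T cells and monocytes, was at 1133 CPM in annotated naive cells of B16 and 630.1 in those of LLC, against 109 in CD8 T cells and 34.8 in Tregs-1. Cxcr3, a receptor for interferon-induced chemokines, was at 198 CPM in B16 and 115 in LLC, against 13.1 in CD8 T cells and 214 in Tregs-1. The early activation marker Cd69 was 5.08-fold (4.45 to 5.79) and the chemokine receptor Ccr2 3.30-fold (2.83 to 3.85) higher than in CD8 T cells of B16. Cxcr6, a receptor that keeps T cells in tissue, was at 239 CPM in annotated naive cells of B16 and 344 in those of LLC, against 559 in CD8 T cells and 95.9 in Tregs-1 of B16. Cd40lg, the ligand of CD40 on helper T cells, had 55 UMIs in annotated naive cells of B16 (18.2 CPM) against 8 in CD8 T cells, a ratio of 23.4 (11.1 to 56.8). It had no UMI in the whole LLC library and is not compared there. Cd40 itself had 2 UMIs in annotated naive cells of B16 and 0 in those of LLC.

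Over the 34 genes of the activation and effector list, 9 were higher, 16 lower and 9 between in annotated naive cells against CD8 T cells, with a median log2 ratio of -0.57, where 18.5% of all genes were higher and 24.6% lower. Against Tregs-1 the counts were 7 higher, 21 lower and 6 between, with a median of -0.93, where 12.1% of all genes were higher and 25% lower. The genes that were lower included cytokines, chemokines and costimulatory receptors. Ifng, the gene of interferon gamma, was at 43.6 CPM in annotated naive cells and 711 in CD8 T cells, and Ccl4, a chemokine, was at 159 CPM in annotated naive cells and 2069 in CD8 T cells. Tnfrsf9 (4-1BB), a receptor induced by antigen, was at 42.9 CPM in annotated naive cells, 596 in CD8 T cells and 896 in Tregs-1.

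Summed over genes present in both libraries, the 20 naive genes reached 4081 CPM in annotated naive cells of B16 and 4924 in those of LLC, against 884 in CD8 T cells and 1439 in Tregs-1 of B16. The 33 activation genes reached 15458 CPM in B16 and 19641 in LLC, against 22876 in CD8 T cells and 25087 in Tregs-1. The naive sum was thus 4.62-fold that of CD8 T cells and 2.84-fold that of Tregs-1, and the activation sum was 0.676 (0.669 to 0.682) of that of CD8 T cells and 0.616 (0.609 to 0.623) of that of Tregs-1. Without Btg1, an antiproliferative gene and the member with most UMIs, the naive ratio was 8.75 over CD8 T cells and 4.30 over Tregs-1. The naive genes of NK cells in B16 summed to 2706 CPM, so much of this list is not private to T cells.

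Many genes of killing and of exhaustion were lower than in CD8 T cells. Of 14 cytotoxicity genes 8 were lower, 3 higher and 3 between against CD8 T cells, with a median log2 ratio of -1.07. The share that was higher was close to the 18.5% of all genes, of which 24.6% were lower. The pore-forming protein Prf1 was at 48.6 CPM in annotated naive cells of B16 and 43.8 in those of LLC, against 1118 in CD8 T cells of B16. Gzmb, the main granzyme of effector cells, was at 205 CPM in B16 and 328 in LLC, against 977 in CD8 T cells and 1145 in Tregs-1. Gzma went the other way, at 266 CPM in B16 and 611 in LLC, against 22.1 in CD8 T cells and 28.5 in Tregs-1, but only 8.48% of annotated naive cells of B16 and 13.5% of those of LLC held a Gzma UMI. Against Tregs-1, 9 of the 14 genes were higher, 4 lower and 1 between, with a median of 2.02, where 12.1% of all genes were higher and 25% lower.

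Of 10 exhaustion genes 9 were lower than in CD8 T cells and the other, Cd160, was between, at a median log2 ratio of -2.45. Of all genes 24.6% were lower than in CD8 T cells. Pdcd1 (PD-1) was at 49.9 CPM in annotated naive cells of B16 and 66.8 in those of LLC, against 276 in CD8 T cells and 136 in Tregs-1 of B16. Lag3, another inhibitory receptor, was at 21.8 CPM in annotated naive cells of B16 and 283 in CD8 T cells. The factor Tox was at 48.9 CPM in annotated naive cells and 263 in CD8 T cells. Against Tregs-1, 9 were lower and 1 was higher, at a median of -2.43, where 25% of all genes were lower and 12.1% higher. The one that was higher was Cd160, at 108 CPM in annotated naive cells and 5.47 in Tregs-1.

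Regulatory genes were low. Foxp3, the defining factor of regulatory T cells, was at 7.27 CPM in annotated naive cells of B16 and 12.5 in those of LLC, against 346 in Tregs-1 of B16 and 456 in Tregs-1 of LLC. All 15 regulatory genes measured against Tregs-1 were lower, with a median log2 ratio of -4.20, where 25% of all genes were lower. Il10 had no UMI in the annotated naive cells of B16 against 223 in Tregs-1, a level at least 64.8-fold lower at a floor of 3 counts. The proliferation list was low as well, with 14 of 15 genes lower and 1 between against either cluster. Of all genes 24.6% were lower against CD8 T cells and 25% against Tregs-1. Mki67, a marker of dividing cells, was at 12.6 CPM in annotated naive cells, against 48.9 in CD8 T cells and 63.9 in Tregs-1.

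The cluster held Cd8-bearing and Cd4-bearing cells together. Cd8a and Cd8b1, which encode the co-receptor chains of cytotoxic T cells, lie side by side on mm10 chromosome 6 (71373427 to 71379173 and 71322788 to 71337494, plus strand). Cd4, the helper co-receptor, lies on the same chromosome from 124864692 to 124888221 on the minus strand. At least 1 Cd8a or Cd8b1 UMI was found in 42% (38.4 to 45.6) of the annotated naive cells of B16 and 31.9% (25.2 to 39.1) of those of LLC. A Cd4 UMI was found in 16.8% (14.2 to 19.7) in B16 and 17.3% (12.1 to 23.5) in LLC.

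Few cells held both and many held neither. Both kinds were seen together in 9 cells of B16 (1.21%) and in 0 of 185 of LLC, which at a floor of 3 counts allows a share of up to 1.62% of cells with UMIs of both at this depth and sets no limit on cells that express both. Neither was seen in 42.4% in B16 and 50.8% in LLC. In CD8 T cells of B16 a Cd8 UMI was found in 98.9%, a Cd4 UMI in 5.21% and neither in 0.508%. In Tregs-1 of B16 a Cd4 UMI was found in 54.0%, a Cd8 UMI in 20.1% and neither in 36.1%. As the background, NK cells of B16 held a Cd8 UMI in 3.99% and a Cd4 UMI in 0.725% of 276 cells, at a median of 4032 UMIs against 3736 in the annotated naive cells of B16.

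Depth differed between the clusters, so each cell was also thinned to 1500 UMIs, leaving out 15 shallower annotated naive cells in B16 and 18 in LLC. After thinning a Cd8 UMI was found in 35.0% of annotated naive cells of B16 and 28.7% of those of LLC, against 87.0% in CD8 T cells and 9.16% in Tregs-1 of B16. A Cd4 UMI was then found in 9.62% in B16 and 12.6% in LLC, against 24.1% in Tregs-1 and 1.52% in CD8 T cells of B16. Neither was found in 55.6% of annotated naive cells of B16 and 58.7% of those of LLC, against 68.8% in Tregs-1, 12.5% in CD8 T cells and 98.9% in NK cells of B16. When 2 UMIs were required in place of 1, without thinning, 5.79% of annotated naive cells of B16 and 5.95% of those of LLC passed for Cd4. At equal depth the annotated naive cells of B16 therefore lay below CD8 T cells of B16 for Cd8 and below Tregs-1 of B16 for Cd4. They lay above NK cells of B16 for both. Within LLC a Cd4 UMI was found after thinning in 4 of 37 Tregs-1 cells, or 10.8% (3.03 to 25.4). The Cd4 order of B16 was thus not seen in LLC.

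Summed levels gave the same order in B16. Cd8a was at 312 CPM in annotated naive cells of B16 and 171 in those of LLC, against 737 in CD8 T cells and 48.4 in Tregs-1 of B16. Cd8b1 was at 448 CPM in B16 and 330.0 in LLC, against 720.1 in CD8 T cells and 71.1 in Tregs-1. Cd4 was at 61.8 CPM in B16 and 108 in LLC, against 9.04 in CD8 T cells and 153 in Tregs-1 of B16. In Tregs-1 of LLC Cd4 was at 114 CPM, and the ratio of annotated naive cells over Tregs-1 there was 0.951 (0.527 to 1.82). The ratio of annotated naive cells over CD8 T cells was 0.423 (0.394 to 0.452) for Cd8a, 0.622 (0.586 to 0.659) for Cd8b1 and 6.83 (5.30 to 8.86) for Cd4.

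A further group of cells held Trdc, the constant gene of the delta chain that gamma delta T cells use in place of the alpha chain. A Trdc UMI was found in 12.1% (9.85 to 14.7) of annotated naive cells of B16 and 7.57% (4.20 to 12.4) of those of LLC, against 0.889% in CD8 T cells and 1.28% in Tregs-1 of B16. After thinning it was 9.75% in B16 and 7.19% in LLC, against 0.254% in CD8 T cells and 0.748% in Tregs-1. NK cells, which do not make a rearranged delta chain but carry the transcript, held a Trdc UMI in 23.2% of cells in B16 and 22.9% in LLC, and after thinning in 11.4% in B16 and 7.03% in LLC. A Trdc UMI alone therefore does not separate gamma delta T cells from NK cells here.

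**Figure D2:**
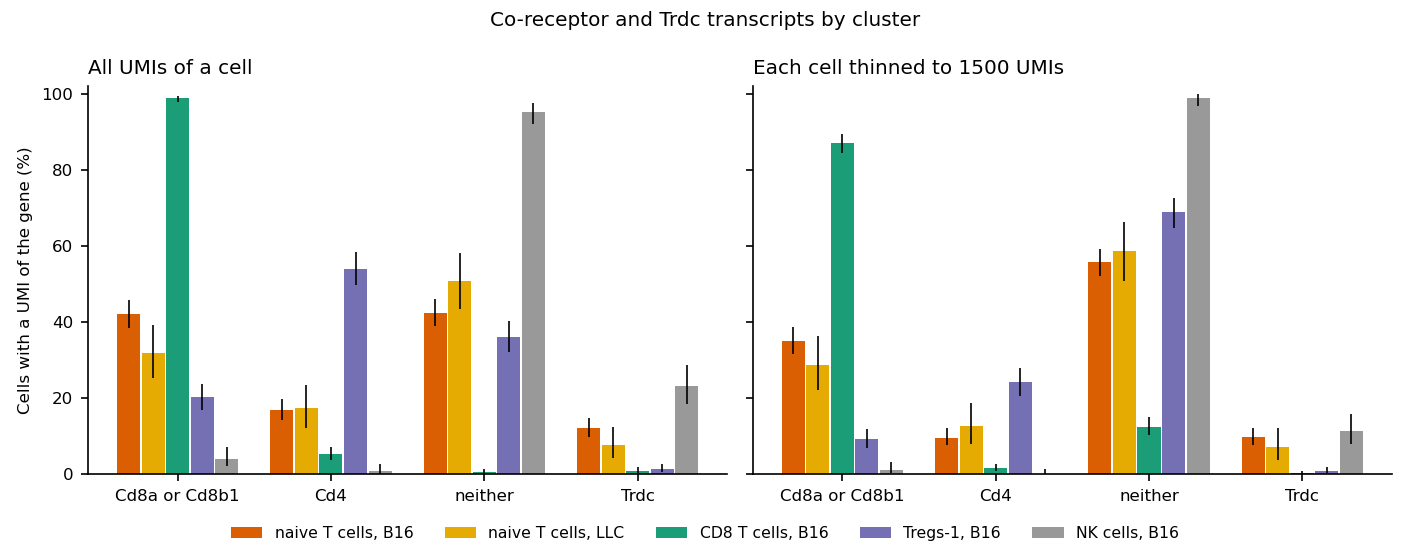
Percent of cells with a UMI of Cd8a or Cd8b1, of Cd4, of neither and of Trdc in annotated naive T cells of B16 and LLC and in CD8 T cells, Tregs-1 and NK cells of B16, with all UMIs (left) and after thinning to 1500 UMIs per cell (right); bars have exact 95% intervals. The naive cluster of B16 sits at 42% for Cd8, below the 98.9% of CD8 T cells, and at 16.8% for Cd4, below the 54.0% of Tregs-1.

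The co-receptor groups shared the naive factors and differed in effector genes. In B16 303 cells held only Cd8 UMIs, 116 only Cd4 UMIs, 74 Trdc without either and 241 none of these genes. Tcf7 was at 268 CPM in the Cd8 group, 336 in the Cd4 group, 255 in the Trdc group and 252 in the group with none. Lef1 ranged over these groups between 175 and 244 CPM and Satb1 between 235 and 280.0 CPM. The marker genes of the label were thus within 1.5-fold of each other across the groups.

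The receptor genes followed the split. Trac, the constant gene of the alpha chain, was at 618 CPM in the Cd8 group, 818 in the Cd4 group and 648 in the group with none, and at 66.2 in the Trdc group. Tcrg-C1, a gamma chain constant gene, was at 272 CPM in the Trdc group, against 12.0 in the Cd8 group, 2.30 in the Cd4 group and 29.1 in the group with none. The cells with no co-receptor UMI thus had alpha chain transcript at the level of the Cd8 group.

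Effector transcripts were lowest in the Cd4 group. Ccl5 was at 1666 CPM there, against 5322 in the Cd8 group, 5325 in the Trdc group and 3794 in the group with none. Nkg7, a granule protein of killer cells, was at 480.3 CPM in the Cd4 group, against 1641, 1695 and 1014 in the Cd8, Trdc and remaining groups. Ly6c2 was at 117 CPM in the Cd4 group, against 1401 in the Cd8 group, 1904 in the Trdc group and 986 in the group with none.

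The Cd4 group carried helper cell genes. The OX40 receptor gene Tnfrsf4 was at 345 CPM in the Cd4 group, 14.8 in the Cd8 group, 0 in the Trdc group and 169 in the group with none. The costimulatory receptor Icos was at 225 CPM in the Cd4 group, against 55.6, 46.4 and 164 in the Cd8, Trdc and remaining groups. The factor Maf was at 218 CPM in the Cd4 group, against 26.1, 59.6 and 122 in the same order. Of the 55 Cd40lg UMIs the level was 66.6 CPM in the Cd4 group, against 2.82 in the Cd8 group, 3.31 in the Trdc group and 23 in the group with none. Foxp3 stayed low in the Cd4 group at 16.1 CPM, against 346 in Tregs-1. The Trdc group was instead high in Xcl1, a chemokine for cross-presenting dendritic cells, at 894 CPM against 234 in the Cd8 group, and in the signalling adaptor Fcer1g, at 785 CPM against 251. The group with none led in the NK receptor gene Klra7, at 228 CPM against 66.9 in the Cd8 group, 4.60 in the Cd4 group and 126 in the Trdc group.

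In LLC the same groups held 59, 32, 14 and 80 cells. Ccl5 was at 10579 CPM in the Cd8 group and 1309 in the Cd4 group, the same order as in B16, and Icos was at 64.0 CPM in the Cd8 group and 336 in the Cd4 group. Maf was at 528 CPM in the Cd4 group of LLC, against 69.8 in the Cd8 group. Tcf7 was at 320.0 CPM in the Cd8 group, 216 in the Cd4 group, 63.7 in the 14 cells of the Trdc group and 280.3 in the group with none. Gzma was concentrated in the Cd8 group of LLC, at 1605 CPM, against 36.0 in the Cd4 group.

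**Figure D3:**
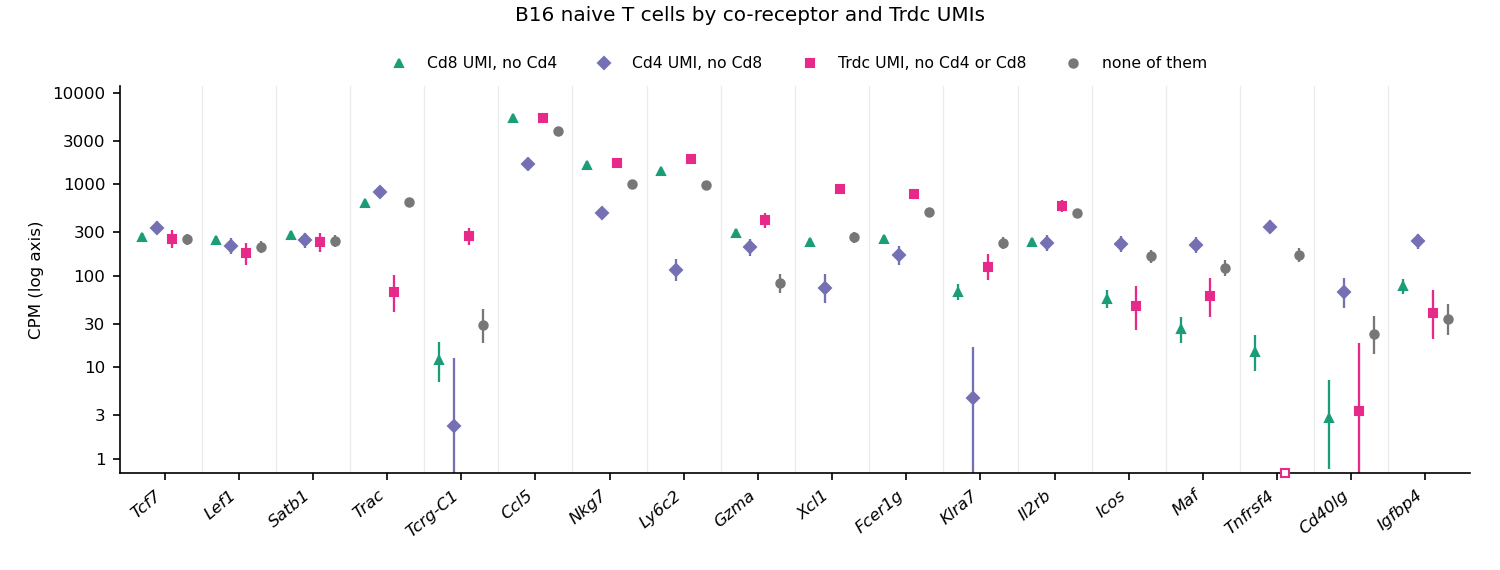
Levels of 18 genes in annotated naive T cells of B16 divided by their Cd8, Cd4 and Trdc UMIs, in CPM on a log axis with exact 95% intervals; the open symbol on the axis marks 0 UMIs. Tcf7 lies between 252 and 336 in all groups, whereas Tnfrsf4 lies at 345 in the Cd4 group and at 14.8 in the Cd8 group.

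Cell by cell, naive and activation transcripts were unevenly spread. For each cell the UMIs of the 20 naive genes were divided by those of the naive and the 33 activation genes together. The median of this balance was 0.189 in annotated naive cells of B16 and 0.182 in those of LLC, against 0.0352 in CD8 T cells, 0.0546 in Tregs-1 and 0.110 in NK cells of B16. Cells in which naive genes held at least 0.5 of these UMIs numbered 158 in B16, or 21.3% (18.4 to 24.4), and 33 in LLC, or 17.8% (12.6 to 24.1). None of 787 CD8 T cells, 1 of 546 Tregs-1 cells and none of 276 NK cells of B16 did.

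Many of the annotated naive cells lay at the other end. The balance was under 0.2 in 391 cells of B16 (52.6%) and 98 cells of LLC (53.0%). Without Ccl5 in the activation list it was under 0.2 in 301 cells of B16 (40.5%) and 83 cells of LLC (44.9%). The activation list also held S100a6, S100a10, Crip1 and Lgals1, at 980, 978, 889 and 888 CPM in annotated naive cells of B16. With Ccl5 kept, the balance was under 0.2 in 244 NK cells of B16 (88.4%) too. A low balance alone therefore does not name an activated T cell. In annotated naive cells of B16 counts per bin of 0.05 fell to 12 cells between 0.45 and 0.50. They lay between 14 and 20 from there up to 0.80, rose to 28 between 0.80 and 0.85 and ended at 4 in the last bin. In B16 28 cells and in LLC 7 cells lay between 0.45 and 0.55. No bin was empty in either library, so the balance is read as a range and not as a type.

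**Figure D4:**
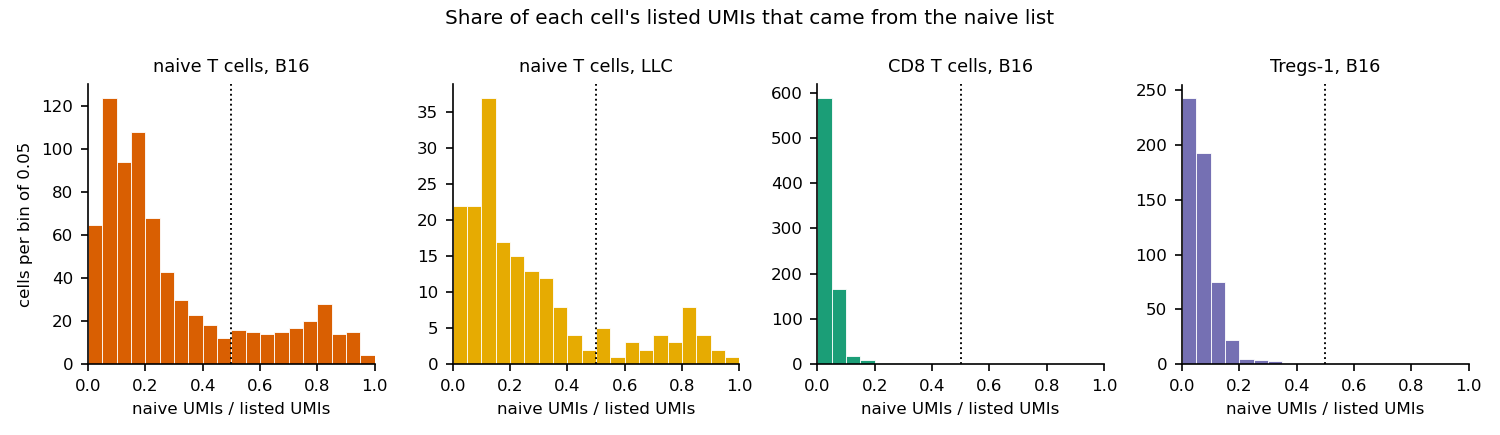
Number of cells per bin of the share of naive genes among a cell's naive and activation UMIs, in annotated naive T cells of B16 and LLC, CD8 T cells of B16 and Tregs-1 of B16; the dotted line marks 0.5, and the vertical scales differ. In the naive cluster 158 cells of B16 and 33 of LLC lie at or above the line, against none of the CD8 T cells.

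Cells on the naive side differed from the rest in genes outside both lists too. In B16 Klra7 was at 4.85 CPM in cells at or above 0.5 and 133 in cells below, and Xcl1 was at 27.5 CPM in cells at or above 0.5 and 346 in cells below. Klrd1 (CD94), a receptor chain of killer cells, was at 139 CPM in cells at or above 0.5 and 508 in cells below. Bcl2, in contrast, was at 413 CPM in cells at or above 0.5 and 423 in cells below, and the median depth was 3736 UMIs in both. A Cd8 UMI was found in 55.1% of the cells at or above 0.5 and 38.5% of those below, a Cd4 UMI in 21.5% of those at or above and 15.6% of those below, and a Trdc UMI in 5.70% of those at or above and 13.8% of those below. By group, 27.7% of the Cd8 group, 26.7% of the Cd4 group, 10.8% of the Trdc group and 13.3% of the group with none lay at or above 0.5 in B16.

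The cells were also divided by Ccl5, a member of the activation list, so this split is not independent of the balance. No Ccl5 UMI was found in 33.1% of annotated naive cells of B16 and 50.8% of those of LLC, whereas 21.7% in B16 and 16.2% in LLC held 30 or more. In CD8 T cells of B16 4.70% had none and 41.2% had 30 or more. Going from annotated naive cells of B16 with 0 Ccl5 UMIs to those with 1 to 29 and those with 30 or more, Tcf7 was at 366, 256 and 187 CPM. Lef1 was at 376, 183 and 96.4 CPM, Ccr7 at 196, 67.6 and 24.5 CPM, and Gzma at 12.7, 41.7 and 1057 CPM in the same order. Klf2 and Bcl2 had no such order, Klf2 at 782, 373 and 540 CPM and Bcl2 at 307, 488 and 440.2 CPM. The median depths were 3632.5, 3716 and 3924 UMIs. Of the 161 cells with 30 or more Ccl5 UMIs, 33 held a Gzma UMI. In LLC Tcf7 was at 332, 231 and 145 CPM and Lef1 at 251, 128 and 52.5 CPM in groups of 94, 61 and 30 cells. Even the cells of B16 with 30 or more Ccl5 UMIs thus had more Tcf7 than the CD8 T cells, at 187 against 7.39 CPM.

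The genes ranked first by the bound of the interval nearest to 1 added receptors of the Ly49 family to the naive genes. Against CD8 T cells of B16 the 10 highest included Klra1, Krt83, S1pr1, Klra7, Tcf7, Klf2, Lef1, Igfbp4 and Nsg2. Klra1 and Klra7, receptors for MHC class I of NK cells and some memory T cells, had 220 and 323 UMIs in annotated naive cells against 6 and 20 in CD8 T cells, with ratios of 125 (56.3 to 343) and 54.9 (35.0 to 91.1). Only 64 and 87 of the 743 annotated naive cells held a UMI of Klra1 and of Klra7. All 6 Klra1 UMIs of CD8 T cells were in 1 cell. Igfbp4, which binds insulin-like growth factors, and Nsg2, a vesicle protein, were 38.3-fold and 32.6-fold higher. The 10 lowest were Gzmf, Gzme, Gzmd, Gzmg, Serpinb9b, Serpine2, Nrgn, Gldc, Ccl3 and Prf1. The granzymes among them, which some tumour CD8 T cells made, had 3 UMIs of Gzmf against 6119 in CD8 T cells, 2 of Gzme against 2285 and 0 of Gzmg against 671. Of the 787 CD8 T cells, 142 held a Gzmf UMI, 82 a Gzme UMI and 15 a Gzmg UMI. A single CD8 T cell held 37.0% of the Gzmg UMIs. The ratio in favour of CD8 T cells was 600.1 (205 to 2911) for Gzmf and at least 65.8 at a floor of 3 counts for Gzmg. Klra, Ly6c and these granzyme genes have close paralogs, and the sources used here do not say how reads shared between copies were counted.

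Other groups are read against the 18.5% of all genes that were higher and 24.6% that were lower than in CD8 T cells, and the 12.1% higher and 25% lower than in Tregs-1. Of 22 interferon response genes 19 were higher, none lower and 3 between, with a median log2 ratio of 1.22, among them the antiviral gene Ifit1 at 90.2 CPM in annotated naive cells and 11.2 in CD8 T cells. Against Tregs-1 none was higher, 11 were lower and 11 between, with a median of -0.52. Of 15 cytokine receptor genes 11 were higher than in CD8 T cells, and of 11 trafficking receptor genes 8 were higher, with medians of 1.09 and 2.13. The integrin chain Itgb7, used for homing to the gut, was 8.99-fold (7.80 to 10.4) higher than in CD8 T cells and 0.537 (0.490 to 0.587) of the level in Tregs-1. Of 18 T lineage genes 6 were higher than in CD8 T cells, 1 was lower and 11 were between. Their median was 0.44, against -0.07 over all 10698 genes, of which 6081 were between. Among them Trac was at 599.6 CPM in annotated naive cells of B16 and 546 in CD8 T cells.

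Against Tregs-1 of B16 the 10 highest were Klra7, Klra1, Ly6c2, Tcf7, Retnlg, Bcl2, Nsg2, Igfbp4, Cd160 and Klf3. Klra7 and Klra1 had 1 UMI each in Tregs-1, with ratios of 371 (66.1 to 14686) and 252 (44.8 to 10017). Ly6c2 was 32.5-fold (27.1 to 39.3) and Bcl2 18.0-fold (14.4 to 22.9) higher. Retnlg, a neutrophil gene, rested on 1 cell, which held all its 157 UMIs in the cluster. The 10 lowest were Il10, Itgb8, Neb, Foxp3, Klrg1, Rapsn, Ctla4, Tnfrsf9, Tnfrsf4 and Areg. Ctla4, an inhibitory receptor of regulatory cells, was at 36.7 CPM in annotated naive cells and 888 in Tregs-1, and Klrg1, a receptor of differentiated effector cells, was at 6.94 CPM in annotated naive cells and 223 in Tregs-1. Areg, a growth factor of tissue regulatory cells, had 6 UMIs in annotated naive cells and 230 in Tregs-1.

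Markers of other cell types were present. The 12 monocyte and macrophage genes summed to 578 CPM in annotated naive cells of B16 and 1504 in those of LLC, against 1299 in CD8 T cells and 1139 in Tregs-1 of B16, and none was at 0. Tregs-1 of LLC were close to the annotated naive cells of LLC, at 1429 CPM. The B cell list summed to 333 CPM in annotated naive cells of B16 and 121 in those of LLC. The NK list summed to 838 CPM in B16 and 741 in LLC, against 818 in CD8 T cells and 8903 in NK cells of B16, with the defining receptor Ncr1 at 17.8 CPM in B16. The neutrophil list summed to 619 CPM in B16 and 1932 in LLC, against 56.7 in CD8 T cells of B16. Tregs-1 of LLC were also high, at 1520 CPM, so the LLC level was not particular to the annotated naive cells. A single cell held 80.9% of the 1874 neutrophil UMIs of the cluster in B16, and 119 CPM were left without it. Without that cell the neutrophil gene S100a8 was at 36.8 CPM in annotated naive cells of B16, and Retnlg was at 0. This S100a8 level was 1.77-fold that of all CD8 T cells, at 20.8 CPM. However, 1 CD8 T cell held 128 of their 214 S100a8 UMIs, and without it CD8 T cells were at 8.37 CPM.

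Between the tumours the naive genes of the cluster were close. Of 20 naive genes measured in both libraries 3 were higher in B16 than in LLC, 1 lower and 16 between, with a median log2 ratio of -0.01. Of all 8400 genes measured 11.1% were higher and 15.5% lower in B16, with a median of -0.07, so the share of lower naive genes did not exceed that of all genes. Tcf7 had a ratio of 1.02 (0.846 to 1.24) of B16 over LLC, Lef1 of 1.24 (0.992 to 1.57) and Satb1 of 0.825 (0.693 to 0.989). The gene that was lower in B16 was Il7r, at 409 CPM against 772 in LLC, a ratio of 0.530 (0.471 to 0.597). None of 18 T lineage genes differed by 1.5-fold in either direction.

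Activation genes were lower in B16. Of 33 measured 18 were lower in B16, 2 higher and 13 between, with a median log2 ratio of -0.60, against the 15.5% lower among all genes. Ifng was at 43.6 CPM in B16 and 148 in LLC. The adhesion receptor Cd44 was at 86.6 CPM in B16 and 221 in LLC. Il2ra, the inducible IL-2 receptor chain, was at 16.2 CPM in B16 and 75.1 in LLC. The 2 that were higher in B16 were Ly6c2 and Cxcr3, with ratios of 1.80 (1.60 to 2.03) and 1.72 (1.31 to 2.32). Summed, the activation genes reached 0.787 (0.770 to 0.805) of the LLC level and the naive genes 0.829 (0.793 to 0.866).

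The dissociation stress list, of immediate early and heat shock genes, went the same way as the activation list, with 7 of 15 genes lower in B16, 1 higher and a median log2 ratio of -0.47, where 15.5% of all genes were lower and 11.1% higher. Most neutrophil UMIs lay in few cells. In LLC 3 cells held 69.0% of the 926 neutrophil UMIs of the cluster, and in B16 a single cell held 80.9%. All 6 neutrophil genes measured were lower in B16 at a median of -1.73. For Retnlg the ratio was 1.30 (0.806 to 2.22) without 1 LLC cell. Its B16 UMIs were all in 1 cell, and without that cell it was at 0 in B16 against 87.6 CPM in LLC. With the top cell of each library left out, the neutrophil list summed to 119 CPM in B16 and 1380 in LLC. Of 11 monocyte and macrophage genes 5 were lower in B16, at a median of -0.39. A neutrophil-list UMI was found in 16.6% of annotated naive cells in B16 and 63.2% in LLC. The part of these transcripts in the difference of the activation list was not tested. Interferon response genes were mostly between, at 18 of 22, and summed to 3079 CPM in B16 and 3075 in LLC.

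Several of the genes ranked first between the tumours differed in the same way over all cells of the libraries. The 10 highest in B16 were H2-Aa, H2-Eb1, Cd74, Cd7, Klra7, H2-Ab1, Klra1, Id3, Ly6c2 and Ctsw, and the 10 lowest were Ccl1, Fn1, Cxcl2, Spp1, Ctse, Cxcl3, Il1b, Lyz2, Clec4e and Arg1. H2-Aa, an MHC class II chain of antigen-presenting cells, was at 146 CPM in the cluster in B16 and 27.1 in LLC, while over all cells it was at 2471 CPM in B16 and 912 in LLC. Lyz2, the lysozyme of myeloid cells, was at 128 CPM in the cluster in B16 and 828 in LLC, and over all cells at 2809.9 CPM in B16 and 18354 in LLC. Fn1, Spp1, Cxcl2, Il1b and Arg1, likewise myeloid genes in these tumours, were lower in B16 both in the cluster and over all cells. The part of free RNA of other cells in these differences was not tested. Ccl1, a T cell chemokine, rested on 1 cell that held 88 of its 89 UMIs in LLC, and without that cell its ratio was 3.30 (0.530 to 136) in place of 0.0374.

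T cell and NK genes were also among the highest in B16. Cd7, a surface protein of resting T and NK cells, was at 250.1 CPM in the cluster in B16 and 100.1 in LLC, a ratio of 2.50 (1.86 to 3.42), and over all cells at 37.3 CPM in B16 and 5.92 in LLC. Klra7 was at 107 CPM in B16 and 35.5 in LLC, and Id3, a factor that holds back differentiation, was at 54.5 CPM in B16 and 16.7 in LLC. Gzma went the other way, at 266 CPM in B16 and 611 in LLC.

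**Figure D5:**
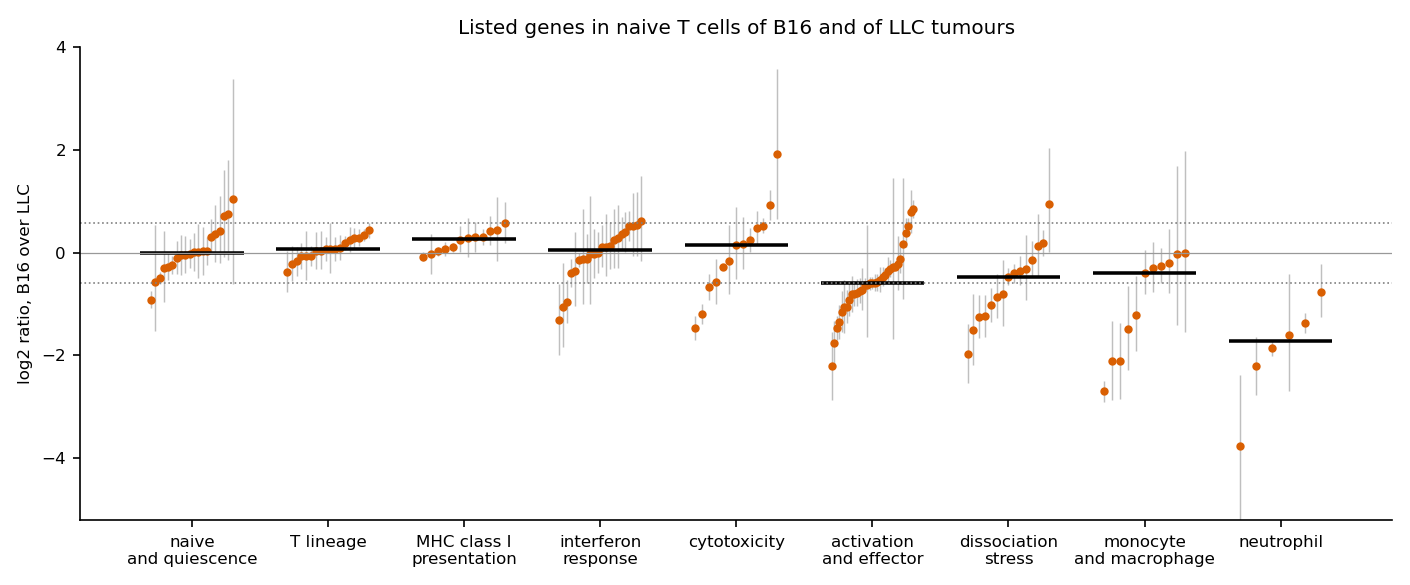
log2 ratio of B16 over LLC in annotated naive T cells for every measured gene of 9 gene lists, 1 point per gene with its exact 95% interval; black bars are list medians and dotted lines mark 1.5-fold in either direction. The naive list is centred at -0.01 and the activation list at -0.60.

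Within LLC the annotated naive cells could be set only against 41 Tregs-1 cells with 131546 UMIs. The naive genes summed to 4924 CPM in annotated naive cells and 2554 in Tregs-1, a ratio of 1.93 (1.72 to 2.17), and the activation genes to 19641 CPM in annotated naive cells and 28287 in Tregs-1, a ratio of 0.694 (0.668 to 0.721). Both directions were those seen in B16. Il7r was at 772 CPM in annotated naive cells of LLC and 737 in Tregs-1, so this gene did not separate them there, unlike in B16, and the difference between the tumours was not tested. Ccl5 was at 5310 CPM in annotated naive cells of LLC and 1072 in Tregs-1.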

How the data were processed

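Deposited tables of UMI counts per gene and cell were used as the authors deposited them. The submitters' processing notes name Cell Ranger and mm10; the sources used here do not give versions, cut-offs of cell filters, sorting, doublet removal or clustering. Cell names are the authors' deposited annotation of the joint B16 and LLC table of 13071 genes and were not redone, and no doublet caller was run. Counts were summed over the cells of a cluster and divided by its total. Totals were 3027040 and 479302 UMIs for the annotated naive cells of B16 and LLC, which sets the precision of each level.

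Levels have exact Poisson 95% intervals, ratios exact conditional binomial and shares Clopper-Pearson intervals. A gene was measured at 20 or more UMIs over both sides and called at 1.5-fold, a rule of size alone. Ratios against 0 use a floor of 3 counts. The 1517 genes with no UMI in LLC and the 272 with none in B16 were left out of the B16 over LLC contrast. Named genes are the 10 highest and 10 lowest by the interval bound nearest 1, with 50 CPM in the higher side, leaving out mitochondrial, ribosomal protein, predicted, receptor segment, sex-linked and haemoglobin genes; Tcf7, Lef1, Satb1, Cd4, Cd8a, Cd8b1, Ccr7, Cxcr6, Cd40lg and Cd40 were always given, and other genes were picked from lists after seeing values. Some genes that the rule or the lists hold are not reported here. The members and the 26 gene lists were chosen with earlier results of these data known. The groups by co-receptor, by Ccl5 and by balance were made after the data were seen. Positions are from GENCODE vM21 on mm10. The code was tested on simulated data; Python 3.11.15, numpy 2.4.6, scipy 1.17.1, pandas 2.3.3 and matplotlib 3.10.9 were used.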

Additional observations from a re-analysis of the deposited data

Results flagged for a closer look

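Of 177 listed genes measured against Tregs-1 in both tumours, 4 lay past 1.5-fold in opposite directions, and the difference between the tumours was not tested for any of them. C1qa, a complement gene of macrophages, had a ratio of annotated naive cells over Tregs-1 of 0.545 in B16 and 1.73 in LLC, where it rested on 44 and 7 UMIs with an interval of 0.771 to 4.54. C1qb, its partner chain, had ratios of 0.575 in B16 and 1.92 (0.911 to 4.67) in LLC. Cd68, a lysosomal gene of macrophages, had ratios of 0.402 in B16 and 1.58 (0.539 to 6.28) in LLC, on 23 and 4 UMIs. Rsad2, an antiviral interferon response gene, had a ratio of 0.305 in B16 and of at least 2.38 in LLC, with 26 UMIs in annotated naive cells and 0 in Tregs-1. For the first 3 genes the LLC interval includes 1.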

How the results depend on the processing

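Of 121 recomputed summary values over 24 results, 74 stayed within their counting interval or within 1.5 times of the count, 45 moved past it and 2 turned, and of 741 values of named genes over 83 results, 652 stayed, 89 moved and 0 turned. The ratio of B16 over LLC shares, 7.61 over all cells, turned to 0.659 over T, NK and B cells and 0.432 over T cells. At 2-fold the genes higher and lower against CD8 T cells were 1026 and 1509 in place of 1984 and 2633, those against Tregs-1 576 and 1271 in place of 1184 and 2454, and those of B16 over LLC 356 and 416 in place of 930 and 1300. With a minimum of 1 UMI the higher counts were 3014 against CD8 T cells and 2016 against Tregs-1, and 3065 were lower in B16; with 50 UMIs 471 were higher and 696 lower in B16. Median-of-ratios scaling, which sets a log2 ratio of -0.20 against Tregs-1 as no change, gave 1779 higher and 1768 lower. In B16 the Cd4, Cd8 and neither shares were 9.62%, 35.0% and 55.6% after thinning and 5.79%, 35.5% and 58.7% when 2 UMIs were required, and in LLC neither was 58.7% after thinning, and Cd4 and neither were 5.95% and 67.6% with 2 UMIs. The naive sum over CD8 T cells was 4.44 as a mean of per-cell values, 4.89 without the 10% of cells with most other-cell UMIs, 8.75 without its top member and 5.04 without ribosomal and mitochondrial UMIs. Against Tregs-1 it was 2.44 as a per-cell mean, 2.69 without the 6% of cells with most UMIs, 4.30 without the top member and 3.44 without ribosomal and mitochondrial UMIs. For B16 over LLC it was 0.877 without the top member and 0.874 without ribosomal and mitochondrial UMIs, and in LLC over Tregs-1 1.69 as a per-cell mean. The activation sum over CD8 T cells was 0.666, 0.629, 0.547 and 0.737 without the deepest 6%, the 10%, the top member or those UMIs, and against Tregs-1 0.587, 0.579, 0.487 and 0.748, or 0.678 with Tregs-2 added. For B16 over LLC it was 0.763 without the 10% and 0.830 without those UMIs. The share of B16 cells on the naive side was 25.3% at a cut of 0.4 and 17.2% at 0.6. The cause of these moves was not tested. Adding Tregs-2 or dividing CD8 T cells to the gene counts, the balance cuts and the LLC per-cell means were chosen after seeing the data. No paired analysis was possible because each group is 1 library. Depth limits LLC most, where 185 cells held 479302 UMIs.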
